A study of Mus musculus with 3 samples.

Results

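The A20-type feedback regulators of NF-kB are a set of 9 mouse genes. Most of their proteins act at or just below cytokine and Toll-like receptors, either to restrain the signal to NF-kB or to carry it. The protein of Zc3h12a instead degrades messenger RNAs of inflammatory genes. The set was fixed by gene name as Tnfaip3, Tnip1, Tnip3, Zc3h12a, Irak3, Traf1, Traf2, Birc2 and Birc3. Every probe set whose only platform gene symbol was one of these names was used, which gave 13 probe sets for 8 of the 9 genes, out of 34945 probe sets for 18193 genes on the array. Tnip3 had no such probe set and no level is given for it. Of the 8 genes, 5 had 2 probe sets and 3 had 1.

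NF-kB transcription factors are held in the cytoplasm by IkB proteins until receptors such as the Toll-like receptors and the TNF receptors trigger chains of ubiquitin that recruit the IkB kinase. Many of the proteins that take this signal down again are themselves products of NF-kB target genes, so that a stimulated cell builds its own brake. A20, the product of Tnfaip3, edits and binds ubiquitin chains with the help of the ABIN proteins, whose genes are Tnip1 and Tnip3. In dendritic cells A20 is known as a check on activation.

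Gene expression was measured in dendritic cells grown from mouse bone marrow with GM-CSF at 20 ng/mL, taken as nonadherent cells on day 7. Per the labels the mice were females of 6 weeks. The cells were kept for 24 h with PTX at 100 ng/mL, with LPS at 1 µg/mL (lipopolysaccharide, the bacterial cell wall component sensed by Toll-like receptor 4), or with PBS as the control, and the labels do not spell out the abbreviation PTX. The strain label reads C57BL/7 for the PTX sample and C57BL/6 for the LPS and PBS samples. The labels name no transgene or deletion, and all 3 groups share the GM-CSF culture. Each group held 1 array, and nothing in the labels says if 1 mouse gave all the cultures. With no replicates there is neither a spread nor a test for any difference below, and the precision of each value is limited by the number of arrays.

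The deposited values are intensities, the brightness of a probe set on a linear scale in arbitrary units. A difference between 2 arrays is given on the log2(intensity + 16) scale, where 1 is a 2-fold difference, and it understates the change of dim probe sets. A gene was read from its brightest probe set, by the mean log2 value of the 3 arrays. It was taken as measured if that probe set had an intensity of at least 78.9, the median of all noncontrol values, on any array. All 8 genes with a probe set were among the 12299 measured genes.

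The LPS array stood apart from the other arrays in ways that do not concern single genes. The median noncontrol intensity was 86.9 with PTX, 65.3 with LPS and 85.7 with PBS. The 18 bacterial hybridization controls were brighter on the LPS array by a median log2 difference of 0.20 against PBS, with 14 of 18 above 0, whereas the PTX array differed from PBS by a median of 0.01. For 18S ribosomal RNA, the 3′ reading over the 5′ reading was 0.20 with PTX, 1.95 with LPS and 0.26 with PBS. The same ratio did not set the LPS array apart for actin, at 1.40 with PTX, 1.39 with LPS and 1.33 with PBS, or for Gapdh, at 1.12 with PTX, 0.96 with LPS and 1.02 with PBS. The part of these array differences in the results that involve LPS was not tested. Of the measured genes at least 2-fold apart between LPS and PBS, 33.3% were higher in LPS with the values as deposited, 58.1% after median centring, 45.6% after quantile normalization and 20.0% after scaling to the hybridization controls.

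The cells carried dendritic cell markers. Of 11 such markers 10 were at or above the measured level with PTX, 10 with LPS and 9 with PBS, and Cd209a was below it on all 3 arrays. Of 7 macrophage and monocyte markers with a probe set, all were above that level on every array, so the labelled cell type is not separated from macrophages by these markers. Markers of B cells (3 with a probe set), NK cells (3) and erythroid cells (3) were below the level on all arrays. Of 4 T cell markers 1 reached it with PTX, 1 with LPS and 2 with PBS, and of 4 stromal markers 1 did on each array. Of 5 mast cell and eosinophil markers, none reached it with PTX, 2 with LPS and 2 with PBS (Cpa3 and Prg2), with a summed intensity of 181 for PTX, 1998 for LPS and 302 for PBS. The summed intensity of 7 neutrophil markers was 5441 for PTX, 11908 for LPS and 10443 for PBS. Of these markers, 3 reached the level with PTX, 4 with LPS and 4 with PBS. Most of the sum came from S100a8 and S100a9, which differed from PBS in opposite directions in LPS. S100a8 read 4007 with PTX, 9306 with LPS and 6074 with PBS, and S100a9 read 1083, 1924 and 3877. Of the 5 measured neutrophil markers, 3 lay above and 2 below PBS in LPS, and all 5 lay below PBS in PTX. The summed intensity of the 7 macrophage markers was 34120.4 for PTX, 33119.7 for LPS and 20334 for PBS. The part of such cells in the results was not tested, and in a bulk sample fewer cells of a type and less RNA per cell cannot be told apart.

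Most of the regulators read higher after LPS than after PBS. With PTX, the brightest probe sets of all 8 lay within 2-fold of PBS, with the values as deposited. The second probe set of Traf1 was just past 2-fold (1.003). Read from the brightest probe sets, all 8 genes were above 0 in LPS against PBS, and 5 were at least 2-fold higher (Traf1, Irak3, Tnip1, Tnfaip3 and Zc3h12a), where 6.5% of all measured genes were at least 2-fold higher. None was at least 2-fold lower, where 13% of all measured genes were. The median log2 difference of the 8 genes was 1.12, and that of all measured genes was -0.08. In PTX against PBS 4 genes lay above and 4 below 0, with a median of 0.13 against 0.01 for all measured genes, and none passed 2-fold, where 3.04% of all measured genes were higher and 2.37% lower.

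**Figure D1:**
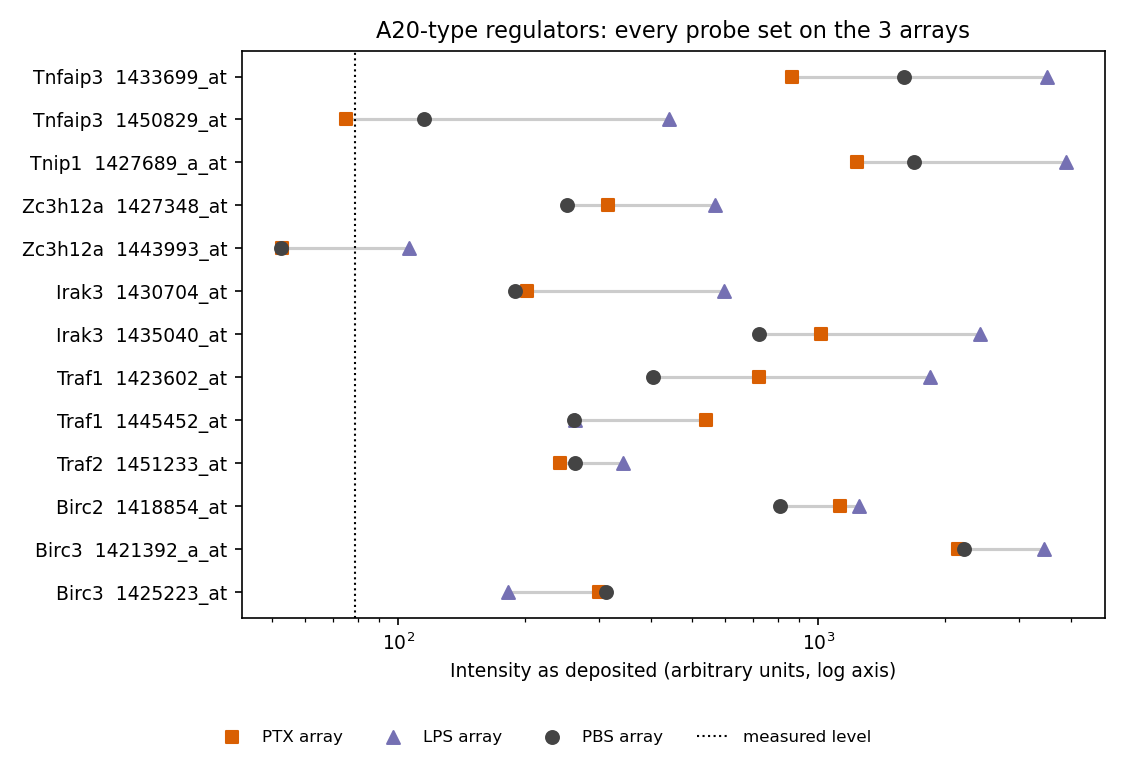
Intensity of each of the 13 probe sets (rows, gene and probe set name) on the PTX, LPS and PBS arrays, on a log axis in arbitrary units, with 1 point per array, no error bars because each group held 1 array, and a dotted line at the measured level of 78.9. The LPS point is the highest of the 3 in 11 probe sets; the exceptions are the second probe set of Traf1, where the LPS and PBS points overlap below PTX, and the second probe set of Birc3, where LPS is lowest.

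Tnfaip3 encodes A20, the ubiquitin-editing enzyme that gives the set its name. Its brighter probe set, 1433699_at, read 865 with PTX, 3499.8 with LPS and 1598 with PBS. Its other probe set, 1450829_at, read 74.98 with PTX, 440.3 with LPS and 115 with PBS. Both probe sets thus had the same order, with LPS highest and PTX lowest, and the second was under the measured level with PTX. In LPS against PBS the log2 difference was 1.12 in the brighter and 1.80 in the other probe set. In PTX against PBS it was -0.87 and -0.52, and in PTX against LPS -1.997 and -2.33. The lower level in PTX than in LPS was the largest of this kind among the 8 genes.

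Tnip1 encodes ABIN-1, a ubiquitin-binding partner of A20. Its only probe set, 1427689_a_at, read 1238 with PTX, 3878 with LPS and 1691 with PBS. The order was that of Tnfaip3, with log2 differences of 1.19 for LPS and -0.44 for PTX, each against PBS, and -1.63 in PTX against LPS. Tnfaip3 and Tnip1 were the members farthest below PBS in PTX, although neither was 2-fold lower. An ending in _a_at marks a probe set that reads several transcripts of a gene, so transcripts of Tnip1 are not told apart.

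Promoter windows of the genes for A20 and the ABIN proteins are shown because they are the only windows of the set that held a match to the kB consensus, the DNA motif bound by NF-kB. RefSeq windows on GRCm38.p6, from 250 bases before to 50 bases after an annotated transcript start, were available for all 9 genes, 12 windows in all. The 10-base consensus was searched on both strands, and overlapping matches were kept. Each sequence below is the 250 bases before the start, 5′ to 3′ on the gene's strand, with bases of a match in capitals.
Tnfaip3, chr10:19015411-19015660, minus strand: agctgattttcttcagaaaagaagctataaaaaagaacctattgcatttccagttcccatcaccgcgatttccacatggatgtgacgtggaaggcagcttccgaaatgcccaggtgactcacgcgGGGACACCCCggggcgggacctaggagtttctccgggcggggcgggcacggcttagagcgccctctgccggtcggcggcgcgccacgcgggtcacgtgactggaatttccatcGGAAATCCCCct
Tnip1, chr11:54962941-54963190, minus strand: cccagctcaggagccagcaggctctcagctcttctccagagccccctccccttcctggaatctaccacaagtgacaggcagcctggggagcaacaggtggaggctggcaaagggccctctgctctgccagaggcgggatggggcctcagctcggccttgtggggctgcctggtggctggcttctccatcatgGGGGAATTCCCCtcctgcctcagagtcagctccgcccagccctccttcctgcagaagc
Tnip3, chr6:65590148-65590397, plus strand: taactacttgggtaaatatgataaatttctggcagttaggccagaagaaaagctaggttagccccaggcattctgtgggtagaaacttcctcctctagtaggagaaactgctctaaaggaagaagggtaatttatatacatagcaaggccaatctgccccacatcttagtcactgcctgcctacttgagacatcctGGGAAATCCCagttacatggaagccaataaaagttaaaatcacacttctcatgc
The Tnfaip3 window held 2 matches, at bases 125 to 116 and 12 to 3 before the start. The Tnip1 window held 3 overlapping matches that together cover bases 58 to 47 before the start, and the Tnip3 window held 1 match at bases 54 to 45. Of 32841 windows of all genes, 8.46% held at least 1 match and 1.22% at least 2. The other 9 windows of the set, including a second one of Tnfaip3 and those of Zc3h12a, Irak3, Traf1, Traf2, Birc2 and Birc3, held no match, which says only that these letters are not in these windows. A match is a description of the letters and not a site of binding.

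Zc3h12a encodes Regnase-1, an RNase that degrades messenger RNAs of inflammatory genes such as Il6 and Il12b. Its brighter probe set, 1427348_at, read 315 with PTX, 567 with LPS and 252 with PBS. Its second probe set, 1443993_at, read 52.9 with PTX, 106 with LPS and 52.6 with PBS. LPS was highest in both, and the second probe set passed the measured level with LPS alone. The log2 difference in LPS against PBS was 1.12 in the brighter and 0.83 in the dimmer probe set, and in PTX against PBS it was 0.30 and 0.01. Zc3h12a thus passed 2-fold through 1 of its 2 probe sets.

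Irak3 encodes IRAK-M, a member of the IRAK kinase family that restrains signalling from Toll-like and interleukin 1 receptors. The brighter probe set, 1435040_at, read 1014 with PTX, 2429 with LPS and 723 with PBS. The other, 1430704_at, read 202 with PTX, 596 with LPS and 189 with PBS. The order was LPS, PTX and PBS from high to low in both. In LPS against PBS the log2 difference was 1.73 in the brighter and 1.58 in the other probe set, so Irak3, like Tnfaip3, was at least 2-fold higher in each of its 2 probe sets. In PTX against PBS it was 0.48 and 0.09, and in PTX against LPS -1.25 and -1.49.

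Traf1 encodes a TRAF adaptor that lacks the RING domain of its relatives and binds Traf2. Its brighter probe set, 1423602_at, read 721 with PTX, 1849 with LPS and 404 with PBS. These values gave the largest LPS against PBS difference of the set, 2.15, with 0.81 in PTX against PBS and -1.34 in PTX against LPS. The other probe set, 1445452_at, read 541 with PTX, 263 with LPS and 262 with PBS. It was nearly equal in LPS and PBS (0.01) and was highest in PTX (1.003 against PBS, just past 2-fold, and 0.9956 against LPS, just short of it). The 2 probe sets of Traf1 thus disagreed on which stimulus had the highest level, and both read more with PTX than with PBS.

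Traf2 encodes a RING adaptor that brings the ligases cIAP1 and cIAP2 to TNF receptors. Its probe set, 1451233_at, read 242 with PTX, 342 with LPS and 264 with PBS. The log2 differences were 0.36 in LPS against PBS and -0.12 in PTX against PBS, the smallest LPS difference of the set.

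Birc2 and Birc3 encode cIAP1 and cIAP2, ubiquitin ligases that act with Traf2 and also keep the kinase of the noncanonical NF-kB pathway low. The genes are neighbours on chromosome 9. Birc2, read by 1418854_at, had 1128 with PTX, 1247 with LPS and 808 with PBS, with log2 differences of 0.62 in LPS against PBS and 0.47 in PTX against PBS. The brighter probe set of Birc3, 1421392_a_at, read 2149 with PTX, 3438 with LPS and 2226 with PBS, a difference of 0.62 in LPS and -0.05 in PTX against PBS. The other, 1425223_at, read 301 with PTX, 182 with LPS and 311 with PBS. It lay below PBS in LPS (-0.73) and near PBS in PTX (-0.05). Birc2 thus stood above PBS with both stimuli, whereas the direction of Birc3 in LPS depended on the probe set.

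Counted over single probe sets, the picture of the set was close to that over genes. In LPS against PBS 7 of 13 probe sets were at least 2-fold higher and none at least 2-fold lower, where 6.23% of 21805 probe sets that reached the measured level were higher and 16.3% lower. Of the 13, 12 lay above 0. In PTX against PBS 1 of 13 was at least 2-fold higher, the second probe set of Traf1, and none was lower, where 2.76% and 2.19% of probe sets were. In PTX against LPS none of 13 was at least 2-fold higher and 6 were lower, where 17.3% and 6.22% of probe sets were. In that comparison 11 of the 13 lay below 0 and 2 above, the second probe sets of Traf1 (0.9956) and Birc3 (0.68). Probe sets of 1 gene share the gene and the sample and are not replicates.

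**Figure D2:**
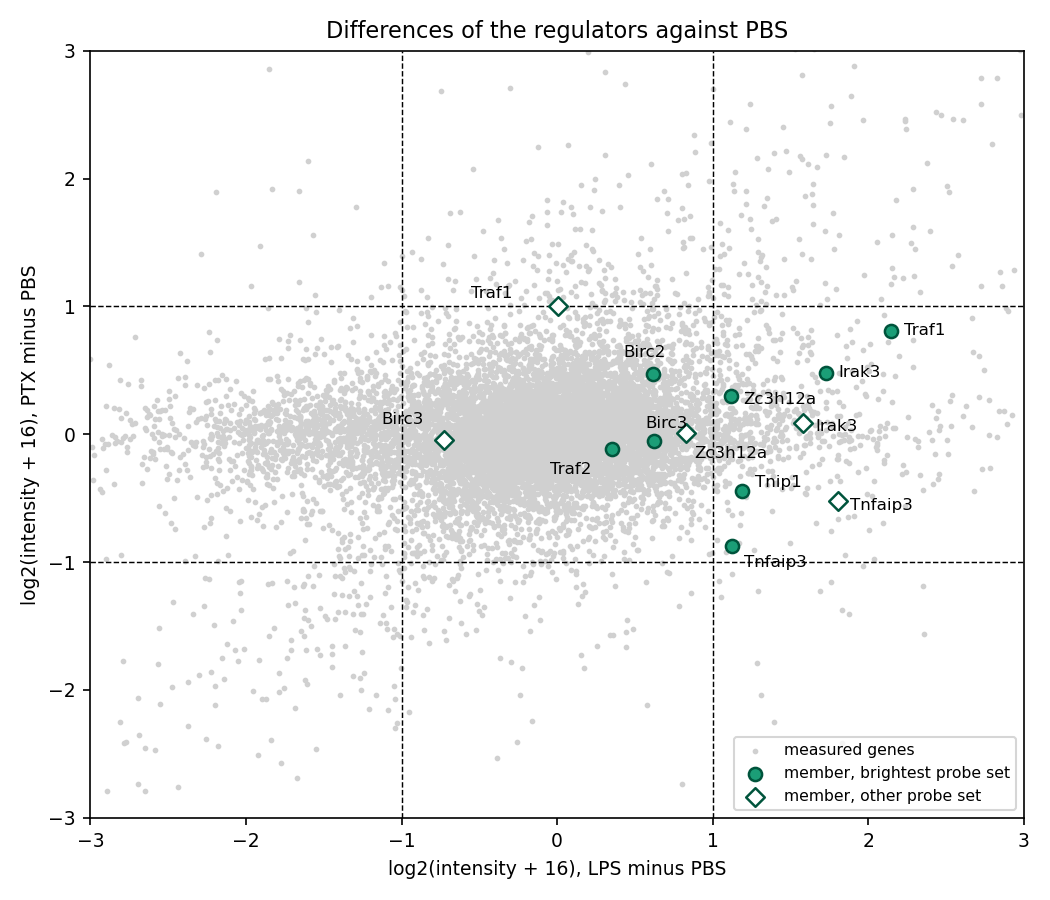
Log2(intensity + 16) difference in LPS against PBS (horizontal) and in PTX against PBS (vertical) for the measured genes (grey), the brightest probe set of each of the 8 regulators (filled circles) and their other probe sets (open diamonds). Both axes are cut at -3 and 3, dashed lines mark 2-fold, both differences share the PBS array, and 5 filled circles lie right of the 2-fold line while none lies outside it vertically.

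Set directly against each other, the PTX array read lower than the LPS array in the brightest probe set of all 8 genes with the values as deposited. In PTX against LPS 4 genes were at least 2-fold lower (Tnfaip3, Tnip1, Traf1 and Irak3), where 6.24% of all measured genes were, and none was at least 2-fold higher, where 13.7% were. The median log2 difference of the 8 genes was -1.03, and that of all measured genes was 0.09. Zc3h12a (-0.82), Birc3 (-0.67), Traf2 (-0.47) and Birc2 (-0.14) were within 2-fold. This comparison uses the same LPS array as LPS against PBS, and the same PTX array as PTX against PBS. With median centring, Zc3h12a (-1.16) and Birc3 (-1.01) were at least 2-fold lower as well. The sign of Birc2 turned to 0.09 with scaling to the hybridization controls. With the mean of all probe sets of a gene, Traf1 was at -0.17 and Birc3 at 0.002, and without probe sets that can match several transcripts Birc3 was at 0.68.

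The number of regulators past 2-fold in LPS changed with the scaling between arrays. The median of all measured genes in LPS against PBS was -0.08 as deposited, 0.27 after median centring, 0.11 after quantile normalization and -0.32 after scaling to the hybridization controls. Traf1 (1.93 to 2.47 over the 4 scalings) and Irak3 (1.501 to 2.05) were at least 2-fold higher under each. Tnfaip3 (0.85 to 1.45), Tnip1 (0.90 to 1.51) and Zc3h12a (0.89 to 1.44) were below 2-fold under at least 1 of them. Relative to the median of all measured genes, the differences were 0.74 to 1.22 for Tnfaip3, 0.79 to 1.29 for Tnip1, 1.17 to 1.21 for Zc3h12a, 1.501 to 1.82 for Irak3 and 2.00 to 2.24 for Traf1. In PTX against PBS, Tnfaip3 lay between -1.03 and -0.87, and its 2-fold call arose with quantile normalization alone.

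**Figure D3:**
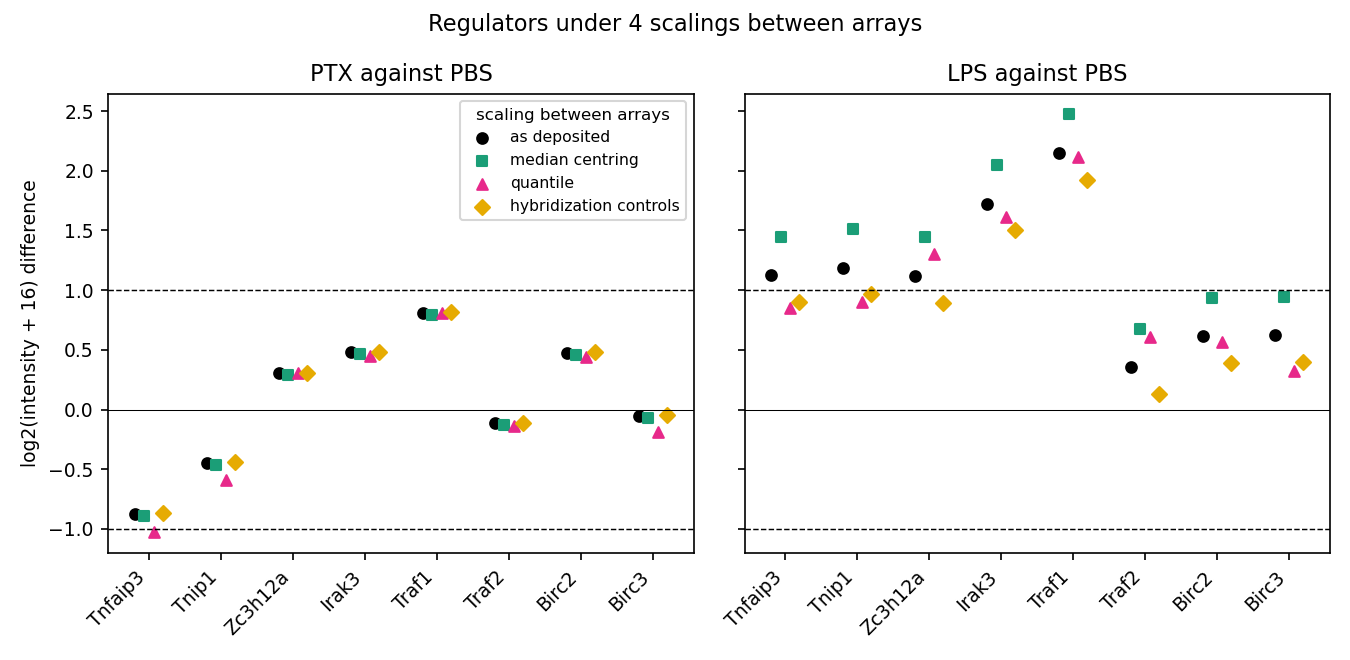
Log2(intensity + 16) difference of each of the 8 regulators in PTX against PBS (left) and LPS against PBS (right) under 4 scalings between arrays, with 1 point per scaling, dashed lines at 2-fold and no error bars. The PTX points of a gene lie close together, whereas the LPS points spread, and for LPS only Traf1 and Irak3 stay above the upper dashed line under all 4.

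The receptors, adaptors and ubiquitin enzymes that work with the regulators lay mostly within 2-fold of PBS, as did most measured genes. Of 12299 measured genes 9899 were within 2-fold in LPS and 11633 in PTX. Of 16 measured ubiquitin enzymes and adaptors around A20, all were within 2-fold in both LPS and PTX, with medians of 0.17 in each. Among them Tax1bp1, an adaptor of the A20 complex, differed by 0.46 in LPS and 0.18 in PTX, Itch, a ligase partner of A20, by -0.57 in LPS and 0.26 in PTX, and Rnf11, another partner, by -0.07 in LPS and -0.16 in PTX. Cyld, a deubiquitinase that also restrains NF-kB, differed by -0.08 in LPS and 0.01 in PTX. Otulin, which cuts linear ubiquitin chains, differed by 0.19 in LPS and 0.22 in PTX, and Tnip2, the ABIN-2 gene, by 0.16 in LPS and 0.17 in PTX. The farthest of the list in LPS were Spata2, an adaptor of Cyld (-0.88), and Rnf31, the catalytic subunit of the linear ubiquitin ligase (0.85, and 0.78 in PTX). With scaling to the hybridization controls the LPS median of this list was -0.06, and Spata2 was then 2-fold lower. Rnf31 passed 2-fold in LPS with median centring and with quantile normalization, as did Ube2d3, a ubiquitin-conjugating enzyme gene, with median centring, and Ikbkg, the regulatory subunit of the IkB kinase, was 2-fold lower in PTX with quantile normalization.

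Ripk1, Ripk2, Irak4, Traf3 and Chuk had no probe set with a single symbol and are not counted among the receptor-proximal genes. Of 18 measured receptor-proximal genes 1 was at least 2-fold higher in LPS, none lower, and none passed 2-fold in PTX (median -0.13 in LPS, 0.20 with median centring, and 0.09 in PTX). That 1 of 18 (5.56%) is close to the 6.5% of all measured genes that were higher in LPS. The gene higher in LPS was Cd40, a costimulatory receptor that signals through TRAF proteins. It read 218 with PTX, 564 with LPS and 132 with PBS (1.97 in LPS and 0.66 in PTX against PBS). Tnfrsf1b, a TNF receptor that binds Traf2, was just within 2-fold, at 0.98 in LPS and 0.86 in PTX. Traf6 (-0.49 in LPS), Irak1 (-0.18), Irak2 (0.69) and Map3k14, the kinase gene of the noncanonical pathway (0.11), were also within 2-fold. With median centring Tnfrsf1b and Irak2 were at least 2-fold higher in LPS as well.

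Nfkb1 had no probe set with that single symbol and is not counted here. Among 10 measured NF-kB subunits and IkB proteins, 1 was at least 2-fold higher in LPS and none in PTX (median 0.19 in LPS, -0.03 with scaling to the hybridization controls, and -0.06 in PTX). That is 10% in LPS, where 6.5% of all measured genes were higher, and 3.04% were higher in PTX. Nfkbia, the classical feedback inhibitor IkB-alpha, read 6659 with PTX, 15950 with LPS and 7569 with PBS, which gave 1.07 in LPS and -0.18 in PTX against PBS. Nfkbia was short of 2-fold in LPS with quantile normalization and with scaling to the hybridization controls. Nfkbib, the IkB-beta gene (0.80 in LPS, -0.01 in PTX), passed 2-fold in LPS with median centring. Nfkbiz, an atypical IkB protein, differed by 0.23 in LPS and by -0.94 in PTX, where it was 2-fold lower with quantile normalization. Nfkb2 (0.38 in LPS, -0.11 in PTX), Relb (0.17 in LPS, 0.31 in PTX) and Rel (0.08 in LPS, -0.24 in PTX) were within 2-fold.

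Most relatives from the same protein families were within 2-fold of PBS, as were most measured genes. Of 13 measured relatives 1 (7.69%) was at least 2-fold higher and 1 lower in LPS, and likewise in PTX, with both comparisons sharing the PBS array. Of all measured genes 6.5% were higher and 13% lower in LPS, and 3.04% were higher and 2.37% lower in PTX. With 1 gene each way, these counts say little about the list. Zc3h12d, a relative of Regnase-1, read 508 with PTX, 334 with LPS and 102 with PBS (1.57 in LPS and 2.15 in PTX against PBS). Unlike Zc3h12a, its PTX value was the highest of the 3. Birc5, the mitotic gene for survivin, read 163 with PTX, 140 with LPS and 961 with PBS (-2.65 in LPS and -2.45 in PTX). Xiap, a close relative of Birc2 and Birc3, was within 2-fold (-0.38 in LPS and 0.12 in PTX), and so were Zc3h12c (0.83 in LPS, -0.41 in PTX) and Birc6 (0.74 in LPS, 0.07 in PTX). Zc3h12c was also at least 2-fold higher in LPS with median centring and with quantile normalization, and Birc6 and Irak2 with median centring. The LPS median of the list was 0.08, and -0.15 with scaling to the hybridization controls.

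NF-kB target genes lay on both sides of PBS in PTX. Of 17 measured target genes 13 were at least 2-fold higher in LPS and none lower (median 1.60), whereas in PTX 4 were higher and 6 lower (median -0.18). Of all measured genes 6.5% were higher and 13% lower in LPS, and 3.04% were higher and 2.37% lower in PTX. The genes farthest from PBS in LPS were Socs3, an inhibitor of cytokine receptor signalling (2.85), the cytokine genes Il1b (2.67) and Il12b (2.44), and Il6 (2.36). In PTX, Ptgs2, the inducible cyclooxygenase gene (-2.48), and the neutrophil attractants Cxcl1 (-2.41) and Cxcl2 (-2.12) were far below PBS and Il12b was far above (2.52). Ptgs2 was under the measured level on the PTX array. Nos2, the inducible nitric oxide synthase gene and 1 of the 13, read 36.6 with PTX, 213 with LPS and 39.0 with PBS, so it counted as measured through the LPS array alone. The number of target genes at least 2-fold higher in LPS was 15 with median centring, 12 with quantile normalization and 11 with scaling to the hybridization controls.

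Transcripts named as Regnase-1 targets overlapped with that list. Of 9 measured, 5 were at least 2-fold higher in LPS and none lower (median 1.60), against 1 higher and 3 lower in PTX (median -0.24). All of these called genes are also in the list of NF-kB target genes, so the counts repeat that list. Of all measured genes 6.5% were higher and 13% lower in LPS, and 3.04% were higher and 2.37% lower in PTX. With quantile normalization 4 of the 9 were lower in PTX, Nfkbiz, which is not in that list, being added. Il6 read 181 with PTX, 2974 with LPS and 568 with PBS (-1.57 in PTX against PBS). Il12b read 570 with PTX, 535 with LPS and 85.9 with PBS. These 2 known targets of Zc3h12a thus lay on opposite sides of PBS in PTX, where Zc3h12a itself differed by 0.30.

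The list of other negative regulators of Toll-like receptor signalling held 16 measured genes. It was drawn up by gene name, and the role of each gene in these cells was not tested. Of the 16, 4 were at least 2-fold higher and 2 lower in LPS (median 0.12, and -0.10 with scaling to the hybridization controls). Of all measured genes 6.5% were higher and 13% lower, so the share of the list that was lower, 12.5%, was close to that of all measured genes. The higher ones were Socs3 (2.85), Socs1 (2.84), Peli1, a ubiquitin ligase of the pathway (1.99), and the cytokine gene Il10 (1.76). Socs3 is also counted among the NF-kB target genes. Socs1 read 78.7 with PTX, 581 with LPS and 67.3 with PBS, and Il10 read 53.3 with PTX, 204.9 with LPS and 49.0 with PBS. Both reached the measured level on the LPS array alone and counted as measured only through it. The lower ones were the transcription factor gene Atf3 (-1.61) and the receptor gene Sigirr (-1.11). Sigirr was short of 2-fold with median centring and with quantile normalization, and Peli1 with quantile normalization, while Dusp1 was 2-fold higher in LPS with median centring. In PTX Socs3 was higher (1.27) and Dusp1, a MAP kinase phosphatase gene, was lower (-1.08), with a median of 0.26. Each is 1 of 16 (6.25%), where 3.04% of all measured genes were higher and 2.37% lower in PTX. Peli1 read 501 with PTX, 1413 with LPS and 343 with PBS, the order seen for Irak3.

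**Figure D4:**
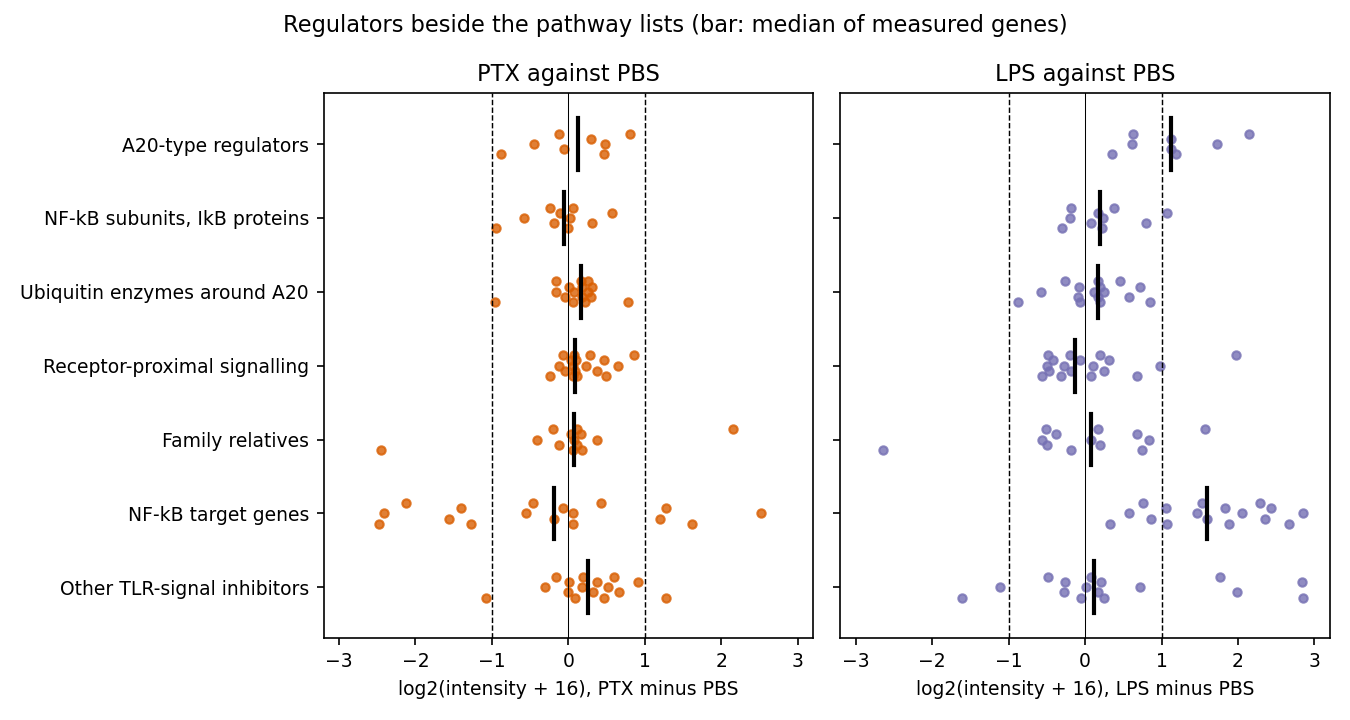
Log2(intensity + 16) difference against PBS for PTX (left) and LPS (right) of each measured gene (points) of the A20-type regulators and 6 pathway lists, with black bars at the list median and dashed lines at 2-fold. The regulators have a median of 0.13 in PTX and 1.12 in LPS; in LPS the NF-kB target genes have a median of 1.60 and the other lists lie between -0.13 and 0.19.

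The genes with the pattern most like Tnfaip3 were sought among 2369 other measured genes whose mean log2 value lay within 1 of its own, by the distance over the 2 log2 differences against PBS. The nearest was Car2, a carbonic anhydrase gene, which read 457 with PTX, 1897 with LPS and 834 with PBS (distance 0.05). Clec5a, a C-type lectin receptor gene, followed with 497 for PTX, 2049 for LPS and 955 for PBS (distance 0.06). Cd33, a sialic acid-binding receptor gene, had 516 with PTX, 1952 with LPS and 853 with PBS (distance 0.17). With 3 arrays, such a likeness rests on 2 differences and is a description of these arrays.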

How the data were processed

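RNA from mouse bone marrow-derived dendritic cells was hybridized to Affymetrix arrays after labelling 3 µg of total RNA, per the labels' protocols. The authors deposited 1 summarized intensity per probe set and array, between 1 and 25483. How the probes were summarized, background-corrected and scaled is not given in the sources used here.

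Intensities were used as deposited. Log2 differences were taken after adding a pseudocount of 16 (Python 3.11.15, numpy 2.4.6, pandas 2.3.3). The table held 45101 probe sets, including 64 controls. Only the 34945 with exactly 1 symbol in the platform's gene table were used; 932 with several and 9160 with none listed there were left out. Each group held 1 array, so genes were counted at a 2-fold difference with no test. The calculation was tested on simulated data. RefSeq promoter windows were searched for the kB consensus.

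The members and the 7 pathway lists were chosen with earlier results of these data known. The lists share genes, so their counts are not separate. Socs3 and Nfkbia, for example, are each among the NF-kB target genes and in another list. Irak1, Irak2, Traf5 and Traf6 are both among the receptor-proximal genes and among the family relatives. Genes named are all members, up to 4 genes per list with the largest differences past 2-fold, and direct partners, targets or relatives of a member. Spata2, Rnf31, Ube2d3, Ikbkg, Nfkbib, Nos2, Zc3h12c and Birc6 were named after their values were seen. Of 95 pathway genes that are no members, 86 had a probe set with a single symbol and 83 were measured. Bcl2a1a, Chuk, Irak4, Nfkb1, Optn, Ripk1, Ripk2, Traf3 and Zc3h12b had no such probe set. Genes that were not measured are not analysed here. Alternatives were 2 other pseudocounts (1 and 64), 3 other scalings, the mean over probe sets, leaving out probe sets that can match several transcripts (IDs ending in _a_at, _s_at or _x_at), no filter, and a filter at the 75th percentile.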

Additional observations from a re-analysis of the deposited data

How the results depend on the processing

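The counts of members at least 2-fold apart were recomputed under 9 alternatives, and 51 of 54 recomputed counts stayed within 1.5 times the count reported. The exceptions were the members higher in LPS against PBS, 5 as deposited, 3 with quantile normalization (Zc3h12a, Irak3, Traf1) and 2 with scaling to the hybridization controls (Irak3, Traf1), and the members lower in PTX against PBS, 0 as deposited and 1 with quantile normalization (Tnfaip3, -1.03). Most of the counts reported were 0. The alternatives with no filter and with the filter at the 75th percentile left the value of every member unchanged. The number of counts that stayed is thus no measure of how firm the calls were. No member past 2-fold changed direction under any of the 9 alternatives. The sign of Birc3 in LPS against PBS turned to -0.05 with the mean of its probe sets and to -0.73 without probe sets that can match several transcripts, and Tnip1 gave no value in the latter. In PTX against LPS the sign of Birc3 turned to 0.002 with the mean of its probe sets and to 0.68 without probe sets that can match several transcripts, and that of Birc2 to 0.09 with scaling to the hybridization controls. Over all genes, those higher in LPS against PBS numbered 799 as deposited and 1449 with median centring, and those lower 1601 as deposited, 1045 with median centring, 1019 with a pseudocount of 64 and 775 with the filter at the 75th percentile. In PTX against LPS the higher genes numbered 1681 as deposited, 1070 with median centring, 1101 with a pseudocount of 64 and 883 with that filter. The lower genes numbered 767 as deposited, 1575 with median centring and 461 with scaling to the hybridization controls. The cause of these changes was not tested. No paired analysis was possible because each group held 1 array. Leaving out an array was not possible for the same reason.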
